A study of Mus musculus with 21 samples.

Results

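The genes described here were 9 transcription factors that specify or mark conventional dendritic cells (cDCs), namely Batf, Batf3, Id2, Zbtb46, Nfil3, Bcl6, Zeb2, Spi1 and Cbfa2t3. They were taken by gene name from the 37734 genes in the files, and all 9 were found and passed the filter on low values that left 14970 genes for testing. RNAseq was performed on cDCs sorted from C57BL/6 mice aged 6 to 8 weeks, for which the labels name no treatment or genetic modification, and each library came from cells pooled from several mice. CD11c+ cells were enriched on beads and then sorted into cDC1, which were CD24+ and CD11b-, and cDC2, which were CD24- and CD11b+. Immature cells were CCR7- ESAM- and mature cells CCR7+ ESAM+, where CCR7 is the chemokine receptor that dendritic cells acquire on maturation. The 6 groups comprised 5 libraries of splenic cDC1, 3 of splenic cDC2, 4 of immature and 3 of mature cDC1 from the thymus, and 3 of immature and 3 of mature cDC2 from the thymus, all splenic cells being immature. There was no mature splenic group, so maturation was compared in the thymus only and tissues in immature cells only.

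The unit throughout is the normalized read count, the number of reads of a gene divided by a size factor of the library, and libraries held 14266867 to 40119669 reads. The labels do not define the number that opens the description of each library, and it is called the pool number here by assumption. Replicates 4 and 5 of splenic cDC1 carried the same pool number, index and lane. Their reads differed less than those of any other pair of the group (chi-square over degrees of freedom 2.44, otherwise 25.0 to 176), and the average of both was used, which left 20 samples. Immature thymic cDC1 replicates 3 and 4 also carried the same pool, index and lane, but their reads differed by 92.8 on this measure, against 22.8 to 86.1 for the other pairs, and they were kept as 2 samples. Each of these groups of 4 samples thus spans 3 pool numbers, since splenic cDC1 replicate 1 shares its pool number with the averaged pair. Averaging the libraries of 1 pool number changed no call of a member. Splenic cDC1 replicate 3 stood furthest from its group, with values of 99.97 to 176. Mature cDC2 replicate 3 also stood apart, at 144 and 125 against 26.9 between replicates 1 and 2. So did splenic cDC2 replicate 2, at 106 and 132 against 35.3 between replicates 1 and 3. Immature groups were split over sequencing lanes 5 and 8, whereas mature cells were in lane 8 only, so values within a lane are given beside the results. The sorted immature subsets carried their markers. Xcr1 read 8385 to 20744 in immature cDC1 and 26.1 to 364 in immature cDC2, while Sirpa read 13773 to 28215 in immature cDC2 and 173 to 1548 in immature cDC1. The summed level of 10 cDC1 markers was 7617 to 10205 in mature cDC1 and 5985 to 7062 in mature cDC2. It was 269070 to 309415 in immature thymic cDC1. Itgam, which encodes CD11b, was at 0 in mature cDC1 and read only 3.14 to 32.7 in mature cDC2. Sirpa still differed, with 5415 to 8425 in mature cDC2 and 286 to 481 in mature cDC1. Of the 10 cDC1 markers, 5 were called lower and 1 higher in mature cDC2, and of 10 cDC2 markers 6 were called higher and 1 lower. Wdfy4, on the cDC1 list, read 2089 to 3237 in mature cDC2 and 863 to 1763 in mature cDC1. RNA of T cells and thymocytes was least in the spleen, with a sum over 8 markers of 3.69 to 79.6, and highest in mature thymic cells, with 735 to 1692. The labels name no single animals, so p-values measure the spread between these pooled samples. In such bulk RNA, fewer cells with a transcript and less transcript per cell cannot be told apart.

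As background, cDC1 and cDC2 arise from a common bone marrow precursor. The cDC1 fate depends on IRF8 together with BATF3, on Nfil3 upstream of Id2, and on Id2 itself, which blocks E proteins. Zeb2 represses Id2 and favours cDC2 and plasmacytoid dendritic cells. Bcl6 is a repressor needed by cDC1, Batf can substitute for Batf3, PU.1 encoded by Spi1 is required by all dendritic cells, Zbtb46 marks the cDC lineage, and Cbfa2t3 encodes the corepressor ETO2.

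The promoters of the members whose levels ranged most, and of the lineage marker Zbtb46, are shown because 2 of them moved together with maturation and the others carried a motif. They were matched in RefSeq (GRCm38.p6) for 8 of the 9 members, with up to 4 start sites per gene, and each run covers 250 bases before to 50 bases after a start site, read 5′ to 3′ on the strand of the gene. Capitals mark matches to TGANTCA, the site of AP-1 and BATF proteins, which 7.81% of 32851 promoters of this length held on either strand.
Batf3 (chr1:191098164-191098463, plus strand): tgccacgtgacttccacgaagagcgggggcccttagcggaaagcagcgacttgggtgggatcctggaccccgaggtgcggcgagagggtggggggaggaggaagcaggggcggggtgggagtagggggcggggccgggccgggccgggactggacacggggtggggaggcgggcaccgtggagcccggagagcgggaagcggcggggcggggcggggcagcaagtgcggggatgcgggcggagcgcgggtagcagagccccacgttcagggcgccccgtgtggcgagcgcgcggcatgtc
Id2 (chr12:25096043-25096342, minus strand): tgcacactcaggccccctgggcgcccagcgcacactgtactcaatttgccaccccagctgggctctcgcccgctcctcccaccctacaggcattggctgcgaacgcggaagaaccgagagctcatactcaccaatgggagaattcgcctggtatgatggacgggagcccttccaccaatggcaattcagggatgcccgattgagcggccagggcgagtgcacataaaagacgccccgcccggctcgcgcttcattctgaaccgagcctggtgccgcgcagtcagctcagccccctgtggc
Zeb2, 4th start site (chr2:45110228-45110527, minus strand): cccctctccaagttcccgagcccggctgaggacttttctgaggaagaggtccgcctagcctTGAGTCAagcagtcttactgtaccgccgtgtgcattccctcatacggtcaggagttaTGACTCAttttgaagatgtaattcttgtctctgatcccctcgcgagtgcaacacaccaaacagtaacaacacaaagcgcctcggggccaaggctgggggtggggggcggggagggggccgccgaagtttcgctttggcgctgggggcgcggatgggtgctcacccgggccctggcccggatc
Zbtb46 (chr2:181424339-181424638, minus strand): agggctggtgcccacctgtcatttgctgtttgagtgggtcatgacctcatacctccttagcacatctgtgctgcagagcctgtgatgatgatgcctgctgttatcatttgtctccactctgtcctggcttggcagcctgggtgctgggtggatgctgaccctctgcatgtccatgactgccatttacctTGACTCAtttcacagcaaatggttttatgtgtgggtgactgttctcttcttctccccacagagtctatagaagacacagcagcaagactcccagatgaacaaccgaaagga
The Batf3 and Id2 runs held no match to TGANTCA, the run at the Zbtb46 start site held 1 and the 4th start site of Zeb2 held 2. All the runs shown lie inside their genes in GENCODE M21 and do not cover the annotated 5′ ends. Those ends are at 191097847 for Batf3, 25097140 for Id2, 45117395 for Zeb2 and 181459426 for Zbtb46. The ends of Batf3, Id2 and Zbtb46 were not searched. The run at the first start site of Zeb2 reaches its end and held no match to TGANTCA. Also searched on both strands were GAAANNGAA (interferon response type, 8.56% of promoters), GAGGAAGT (PU.1 type, 3.20%), TTANGTAA (NFIL3 type, 2.32%), GGGANTTCC (NF-kB type, 1.68%) and the E-box CANNTG (72.3%), which was not put in capitals. Apart from E-boxes, the only other match in the members was 1 GAGGAAGT at the first start site of Cbfa2t3. GC content was 75.7% in the Batf3 run and 63.3% in that of Id2, against a median of 52.7% over all promoters. These matches are descriptions of the letters in the window.

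The members lie on 6 chromosomes in GENCODE M21 (mm10) and are all protein-coding. Batf (ENSMUSG00000034266, chr12:85686669-85709087) and Id2 (ENSMUSG00000020644, chr12:25093799-25097140) share chromosome 12. Zbtb46 (ENSMUSG00000027583, chr2:181387762-181459426), Zeb2 (ENSMUSG00000026872, chr2:44983632-45117395) and Spi1 (ENSMUSG00000002111, chr2:91082390-91115756) lie on chromosome 2. Batf3 (ENSMUSG00000026630) is at chr1:191097847-191108945, Nfil3 (ENSMUSG00000056749) at chr13:52967209-52981073, Bcl6 (ENSMUSG00000022508) at chr16:23965052-23988852 and Cbfa2t3 (ENSMUSG00000006362) at chr8:122625141-122699109. An antisense gene, Zeb2os (named Gm13476 in the files), shares 653 exon bases with Zeb2, and Gm10612 shares 295 with Cbfa2t3. The strand setting of the counting was not given in the sources used here, so reads of each pair may not be separable.

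Per length, the members covered a wide range of levels in every group. In splenic cDC1, Id2 had the highest normalized read count per kb of exon, 4534 ± 1047 (SD, n = 4), followed by Spi1 with 2472 ± 999 (SD, n = 4). Zeb2 was lowest there with 16.6 ± 2.03 (SD, n = 4), and Batf was next lowest with 140 ± 42.7 (SD, n = 4). The splenic cDC2 had a different order. Spi1 was highest per kb with 3433 ± 1032 (SD, n = 3), Id2 had 418 ± 18.0 (SD, n = 3), Zeb2 had 294 ± 7.36 (SD, n = 3) and Batf was lowest with 150.1 ± 46.0 (SD, n = 3). In mature thymic cDC1 the level of Id2 per kb, 16579 ± 2102 (SD, n = 3), stood at percentile 99.6 of the tested genes, while that of Zeb2 in immature thymic cDC1, 2.90 ± 1.77 (SD, n = 4), stood at percentile 12.1. Between its highest and lowest group mean, the normalized read count differed by 101-fold for Zeb2, 39.7-fold for Id2, 7.71-fold for Batf3, 5.89-fold for Bcl6, 3.74-fold for Batf, 2.88-fold for Nfil3, 2.75-fold for Cbfa2t3, 2.14-fold for Spi1 and 1.72-fold for Zbtb46. With the groups ordered by mean, no 2 neighbouring groups overlapped for Bcl6 and Zeb2, whereas every neighbouring pair overlapped for Nfil3 and Spi1.

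**Figure D1:**
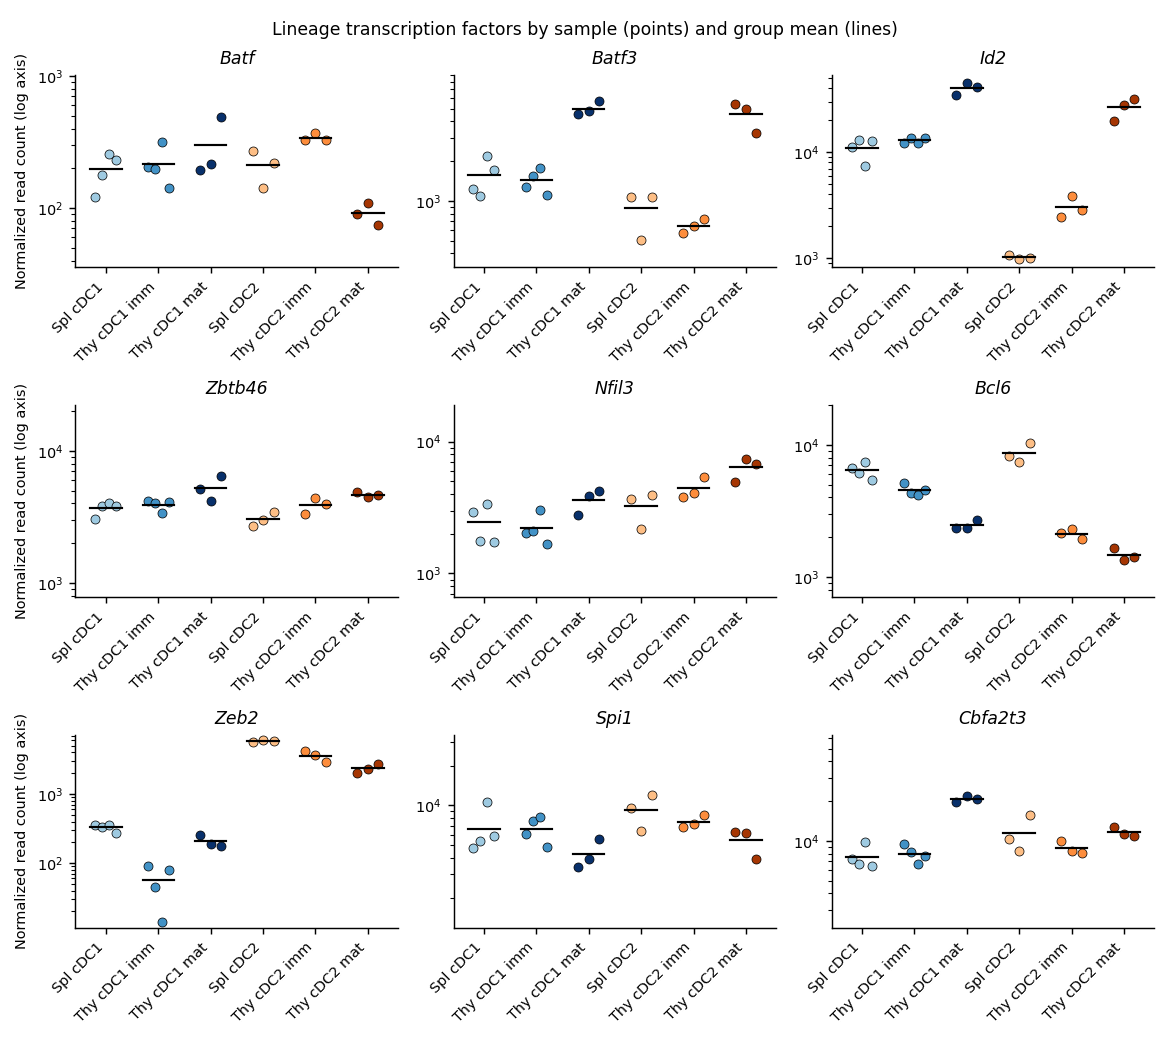
Normalized read count (log axis) of each transcription factor in the 6 groups, with points for the 20 samples and lines for group means; Spl is spleen, Thy thymus, imm immature and mat mature. Id2 and Batf3 are highest in both mature groups, and Zeb2 separates every cDC2 sample (2025 to 5984) from every cDC1 sample (14.0 to 362).

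**Figure D2:**
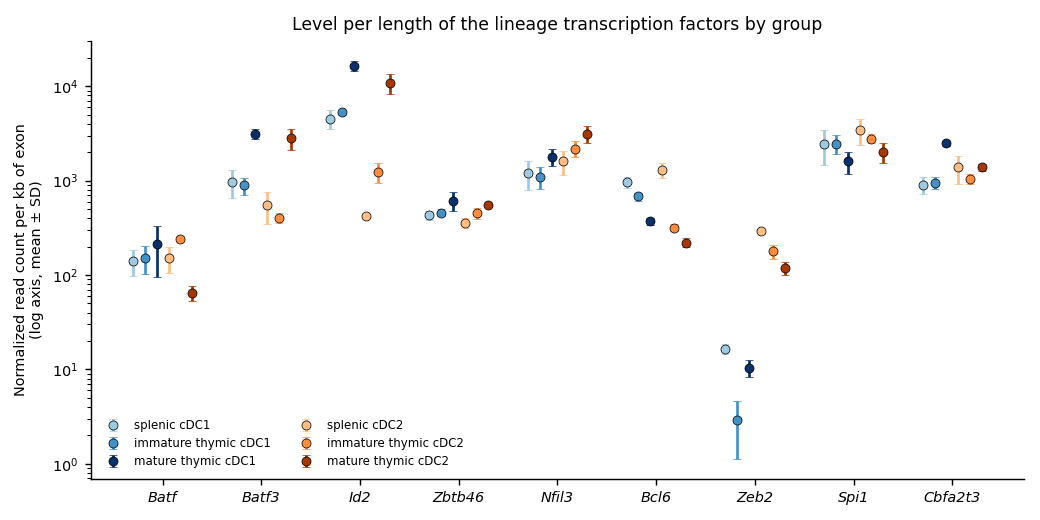
Normalized read count per kb of exon (log axis, mean ± SD over 3 or 4 samples) of each transcription factor, coloured by group. Zeb2 has the lowest level per length in all 3 cDC1 groups and Id2 the highest in both mature groups.

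Maturation of thymic cDCs was compared first, CCR7+ against CCR7- cells. Id2 and Batf3 rose in both subsets, Zeb2 and Cbfa2t3 rose in cDC1, and Batf fell in cDC2. A gene was called when the adjusted p of limma (Benjamini-Hochberg over 14970 genes) was under 0.1 and the change over 2-fold. In cDC1, 4 of the 9 members were called, all higher in mature cells, where 45.7% of all genes were called, 21.3% higher and 24.5% lower. In cDC2, 3 of 9 were called, 2 higher and 1 lower, against 35.6% of all genes, 18.6% higher and 17.0% lower. With both directions counted together, the share of members called was near this background in each subset. The median log2 fold change of the members was 0.72 in cDC1 and 0.27 in cDC2, beside -0.04 and 0.04 over all genes.

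Id2, the inhibitor of E proteins, read 12168, 13626, 12299 and 13733 in the immature thymic cDC1 samples and 34866, 44967 and 41425 in the mature ones. In thymic cDC2 it read 2435, 3851 and 2829 in immature and 19834, 27712 and 31844 in mature cells. Neither pair of groups overlapped, and every mature cDC2 sample lay above every immature cDC1 sample. The log2 fold change was 1.64 (SE 0.20, limma adjusted p = 4.48e-07) in cDC1, or 3.11-fold, and 3.12 (SE 0.21, limma adjusted p = 2.62e-10) in cDC2, or 8.70-fold. Within lane 8 the log2 differences were 1.61 and 2.98. The rise was larger in cDC2, by a log2 difference of 1.49 (SE 0.29, limma adjusted p = 0.00161). Innate lymphoid cells also express Id2. The sum over 6 of their and NK cell markers was 6649 to 10347 in mature cDC2 and 1223 to 1564 in immature thymic cDC2, with Il7r at 5939 to 9349 of it in mature cDC2 and the NK receptor gene Ncr1 at 0 in both groups. In thymic cDC1 the sum was 25.0 to 74.3 in immature and 1006.5 to 1696 in mature cells. Of the 3 tested markers, 2 were called higher with maturation in each subset. Their part in the rise of Id2 was not tested.

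Batf3, the AP-1 factor paired with IRF8 in cDC1, read 1281, 1551, 1768 and 1108 in immature and 4509, 4800.5 and 5683 in mature thymic cDC1. In thymic cDC2 it read 568, 643 and 732 in immature and 5405, 4949 and 3243 in mature cells. The mature groups of both subsets overlapped each other and lay above all immature samples. Maturation gave a log2 fold change of 1.82 (SE 0.27, limma adjusted p = 6.34e-06) in cDC1 and 2.78 (SE 0.29, limma adjusted p = 1.05e-07) in cDC2, which are 3.54-fold and 6.86-fold, and within lane 8 the differences were 1.78 and 2.69. The difference between the subsets' effects was 0.95 (SE 0.39, limma adjusted p = 0.118) and was not called, but it passed with edgeR (1.04, adjusted p = 0.0809) and with a sample left out, for instance mature cDC2 replicate 3 (1.18, adjusted p = 0.0567), immature cDC1 replicate 4 (1.07, adjusted p = 0.0908) or mature cDC1 replicate 3 (1.05, adjusted p = 0.0982).

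Batf, the relative of Batf3, was called in cDC2 and not in cDC1. It read 326, 371 and 330.2 in immature thymic cDC2 and 90.6, 109 and 74.6 in the mature ones, the lowest group of all. In thymic cDC1 it read 206, 197, 315 and 142 in immature and 194, 215 and 491 in mature cells, so the cDC1 groups overlapped. In cDC2 the log2 fold change was -1.91 (SE 0.37, limma adjusted p = 0.000211), 3.75-fold lower in mature cells, with -1.94 within lane 8. In cDC1 it was 0.40 (SE 0.34, limma adjusted p = 0.330), and -0.02 without mature cDC1 replicate 3, the library at 491. The subsets' effects differed by -2.31 (SE 0.50, limma adjusted p = 0.00406).

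Zeb2, the repressor associated with cDC2, was called in cDC1 and not in cDC2. In thymic cDC1 it read 91.2, 45, 14.0 and 80.8 in immature and 254, 191 and 178 in mature cells. The lowest of these rested on 9 reads. In thymic cDC2 it read 4161, 3626 and 2885 in immature and 2025, 2327 and 2736 in mature cells, all far above the cDC1 samples. The log2 fold change was 2.11 (SE 0.39, limma adjusted p = 0.000104) in cDC1, 4.32-fold, with 2.43 within lane 8 and 1.55 without the sample of 9 reads. In cDC2 it was -0.58 (SE 0.42, limma adjusted p = 0.272), although the groups did not overlap. The SE rests on 1 spread shared by all 6 groups. Over the alternative runs (limma, edgeR or DESeq2) the lowest adjusted p was 0.0246, and the change stayed under 2-fold in each. The effects differed by -2.69 (SE 0.57, limma adjusted p = 0.00363). The antisense Zeb2os had 0 to 8.45 in immature and 19.2 to 86.7 in mature thymic cDC1, and 180.1 to 311 and 161 to 229 in thymic cDC2. Macrophages express Zeb2 as well. The sum of 7 macrophage markers was 961 to 1251 in immature and 5854 to 8474 in mature thymic cDC1, of which Vcam1 made up 621 to 808 and 5774 to 7992. Over the list, 2 markers were called higher and 3 lower in mature cDC1, with a median log2 fold change of -1.0, and their part in the rise of Zeb2 was not tested.

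Cbfa2t3, encoding ETO2, read 9440.0, 8188, 6675 and 7669 in immature thymic cDC1 and 19741, 21872 and 20665 in mature thymic cDC1. Its log2 fold change there was 1.39 (SE 0.19, limma adjusted p = 2.51e-06), 2.61-fold, with 1.47 within lane 8. In thymic cDC2 the values were 9992, 8387 and 8090.4 in immature and 12802, 11209 and 10872 in mature cells. These groups did not overlap, but the log2 fold change of 0.40 (SE 0.20, limma adjusted p = 0.113) was not called. The 3 mature cDC1 samples were the highest of all 20. The effects differed by -0.99 (SE 0.28, limma adjusted p = 0.0220), just under the 2-fold limit. Leaving out 1 sample moved this value to between -1.07 and -0.89, and past the limit without immature cDC1 replicate 1 or 2, mature cDC1 replicate 1, immature cDC2 replicate 2 or 3, or mature cDC2 replicate 1. Gm10612, on the other strand, read at most 88.4.

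The remaining 4 members were not called in either subset. Bcl6 read 5155, 4348, 4162 and 4556 in immature and 2363, 2355 and 2721 in mature thymic cDC1, and 2133, 2305 and 1947 in immature and 1658, 1354 and 1414 in mature thymic cDC2. Mature cells were below immature cells in both subsets without overlap, with log2 fold changes of -0.88 (SE 0.14, limma adjusted p = 1.89e-05) and -0.53 (SE 0.15, limma adjusted p = 0.00619), each less than 2-fold. Nfil3, a repressor upstream of Id2, had log2 fold changes of 0.72 (SE 0.26, limma adjusted p = 0.0248) in cDC1 and 0.52 (SE 0.28, limma adjusted p = 0.138) in cDC2. For Zbtb46 they were 0.40 (SE 0.15, limma adjusted p = 0.0272) and 0.27 (SE 0.16, limma adjusted p = 0.175). For Spi1 they were -0.62 (SE 0.27, limma adjusted p = 0.0548) and -0.48 (SE 0.29, limma adjusted p = 0.188). The adjusted p of Nfil3, Zbtb46, Spi1 and Bcl6 was under 0.1 in cDC1, and that of Bcl6 in cDC2.

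Between the subsets' maturation effects, 3 of 9 members were called, Id2 as higher in cDC2 and Batf and Zeb2 as lower, where 13.6% of all genes were called, 8.34% higher and 5.25% lower. The members' median was -0.13 and that of all genes 0.11.

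**Figure D3:**
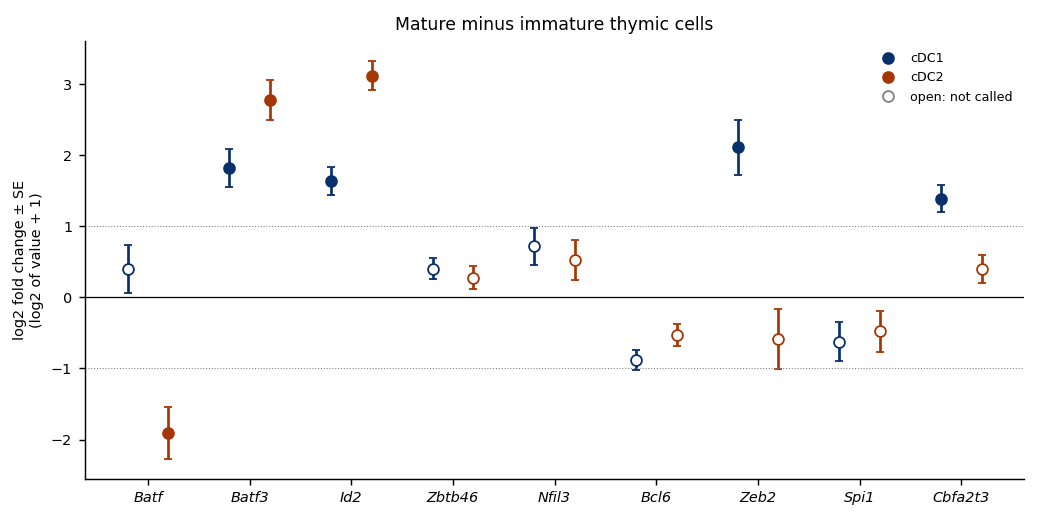
Log2 fold change ± SE (limma, log2 of value + 1) of mature against immature thymic cells for each transcription factor in cDC1 (blue) and cDC2 (orange); filled points are called, dotted lines mark a 2-fold change. Id2 (1.64 and 3.12) and Batf3 (1.82 and 2.78) rose in both subsets, and Batf (0.40 and -1.91) and Zeb2 (2.11 and -0.58) have opposite signs.

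Other factors of the cDC network also moved with maturation, where 45.7% of all genes were called in cDC1 and 35.6% in cDC2. Of 28 other cDC transcription factors, all tested, 10 rose and 10 fell in cDC1 (median log2 fold change -0.08), and 8 rose and 9 fell in cDC2 (median -0.12). In cDC1 the largest were Prdm1, encoding the repressor BLIMP-1, at 5.51, Mycl at -5.50, Spib, a relative of PU.1, at 4.64 and Relb, an NF-kB subunit, at 4.28. In cDC2 they were Bcl11a at -4.17, Hhex at -3.67, Relb at 3.53 and Mycl at -3.40. Irf8, the partner of BATF3, had a log2 fold change of -0.66 in cDC1, not called, and 2.49 in cDC2, called. It was named after its values were seen, like the next 2 genes. Of 30 partners and relatives of the members, 26 were tested, and 9 rose and 3 fell in cDC1 (median 0.03) and 10 rose and 3 fell in cDC2 (median 0.39). Tcf3, which encodes the E protein E2A that Id2 blocks, rose by 1.28 in cDC1 and 1.43 in cDC2 on the log2 scale. Zeb1, the paralogue of Zeb2, rose by 1.05 in each subset.

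Thymic and splenic immature cells were compared next, to show which factors differed with the tissue. Zeb2 was lower in thymic cDC1, Bcl6 was lower and Id2 higher in thymic cDC2, and no other member was called. In cDC1, 1 of 9 members was called (lower), where 8.77% of all genes were called, 4.26% higher and 4.52% lower. In cDC2, 2 of 9 were called, 1 higher and 1 lower, against 14.2% of all genes, 8.30% higher and 5.87% lower. The members' median log2 fold change was 0.04 in cDC1 and -0.26 in cDC2, beside 0.004 and 0.02 over all genes.

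Zeb2 read 362, 336, 353 and 273 in splenic cDC1, above each immature thymic cDC1 sample given earlier. The log2 fold change of thymic against splenic cDC1 was -2.79 (SE 0.36, limma adjusted p = 1.33e-05), 6.90-fold lower, with -1.92 within lane 5 and -3.02 within lane 8, where the thymic samples numbered 1 and 3. In cDC2 the splenic samples read 5696, 5984 and 5889 and were all above the thymic ones, but the log2 fold change of -0.73 (SE 0.42, limma adjusted p = 0.246) was not called. The lowest adjusted p over the alternative runs (limma, edgeR or DESeq2) was 0.0203, with each change under 2-fold. The tissue effects differed by 2.05 (SE 0.56, limma adjusted p = 0.0344). In the libraries of lane 8 this difference was 2.15 with an adjusted p of 0.396 (limma). B cell markers, summed over 6 genes, read 566 to 984 in splenic and 106 to 139 in immature thymic cDC1, and their part was not tested.

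Bcl6, the zinc-finger repressor, read 8238, 7377 and 10430.4 in splenic cDC2, its highest group, against 1947 to 2305 in immature thymic cDC2. In splenic cDC1 it read 6743, 6150.2, 7374 and 5400.1. The splenic samples were above the thymic ones in both subsets. The log2 fold change was -2.02 (SE 0.15, limma adjusted p = 7.48e-09) in cDC2, 4.04-fold lower in the thymus, with -1.87 within lane 5 and -2.30 within lane 8. In cDC1 it was -0.49 (SE 0.13, limma adjusted p = 0.0140), less than 2-fold. The difference between subsets was -1.53 (SE 0.20, limma adjusted p = 5.66e-05). B cell markers in cDC2 were 599.7 to 637 in the spleen and 170.1 to 240 in the immature thymic cells, and their part was not tested.

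Id2 read 1068, 986 and 1001 in splenic cDC2, below all immature thymic cDC2 samples. The log2 fold change was 1.55 (SE 0.21, limma adjusted p = 1.79e-05), 2.93-fold higher in the thymus, with 1.25 within lane 5 and 1.72 within lane 8. In splenic cDC1 it read 11092, 12939.5, 7434 and 12752 and overlapped the thymic cDC1, with a log2 fold change of 0.26 (SE 0.18, limma adjusted p = 0.474). The lowest of these was replicate 3, the splenic cDC1 sample that stood apart. The tissue effects differed by 1.29 (SE 0.28, limma adjusted p = 0.00703), and in lane 8 by 1.28 (limma adjusted p = 0.281). NK and innate lymphoid markers summed to 298 to 506 in splenic and 1223 to 1564 in immature thymic cDC2. Of the 3 tested, 1 was called higher and 1 lower in the thymus. Il7r read 34.2 to 93.1 in splenic and 1061 to 1373 in thymic cDC2, Rora read 246 to 389.9 and 117 to 181, and Ncr1 read 3.66 to 31.2 in splenic cDC2 and was at 0 in thymic cDC2. Their part was not tested.

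The other 6 members were not called between tissues. Batf read 271, 142 and 220.0 in splenic cDC2, below all thymic cDC2 samples, with a log2 fold change of 0.74 (SE 0.37, limma adjusted p = 0.171). In cDC1 the log2 fold changes of Batf, Batf3, Zbtb46, Nfil3, Spi1 and Cbfa2t3 lay between -0.12 and 0.13, and in cDC2 those of the same genes other than Batf lay between -0.36 and 0.47. Spi1 read 4742, 5370.1, 10638 and 5903 in splenic cDC1 and 9492, 6356 and 11905 in splenic cDC2. In both subsets the highest came from pool number 9. The same pool number also gave the highest splenic value of Cbfa2t3 in each subset (9830.1 and 15821) and of Nfil3 (3372 and 3917). This held for Bcl6 (7374 and 10430.4) and Zbtb46 (3997 and 3438) as well. Counted over the tissue effects' difference, 3 of 9 members were called, 2 higher and 1 lower in cDC2, against 4.98% of all genes, 3.27% higher and 1.71% lower. In the libraries of lane 8 alone 1 of the 9 was called.

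**Figure D4:**
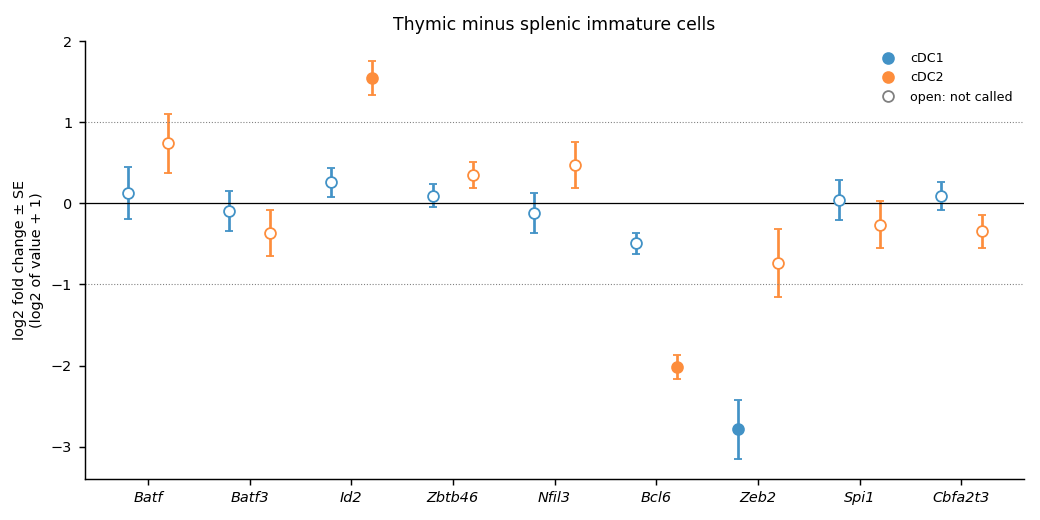
Log2 fold change ± SE (limma, log2 of value + 1) of thymic against splenic immature cells for each transcription factor in cDC1 (blue) and cDC2 (orange); filled points are called and dotted lines mark a 2-fold change. Zeb2 in cDC1 (-2.79), Bcl6 in cDC2 (-2.02) and Id2 in cDC2 (1.55) stand outside the 2-fold lines.

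Of the 28 other cDC transcription factors, 4 were called between tissues in cDC1, all lower in the thymus, and 5 in cDC2, 3 higher and 2 lower. Their medians were -0.18 and -0.34, and 8.77% of all genes were called in cDC1 and 14.2% in cDC2. In cDC1 they included Spib at -2.87, Irf4, which cDC2 depend on, at -2.84 and Bcl11a at -2.0. In cDC2 the largest were Cebpa at 1.40, Relb at -1.35, Tcf4, an E protein gene that plasmacytoid dendritic cells require, at 1.27 and Stat5a at 1.14. Of the 26 tested partners and relatives, 1 was higher and 4 lower in thymic cDC1 (median -0.13), and 3 were higher and 4 lower in thymic cDC2 (median -0.22).

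The subsets were then compared within each state. Zeb2 was higher in cDC2 in all 3 comparisons. Id2 was lower in immature cDC2 of both tissues, and in mature cells its difference was under 2-fold. In the spleen 2 of 9 members were called, 1 higher and 1 lower, against 16.6% of all genes, 9.93% higher and 6.70% lower. In immature thymic cells 5 of 9 were called, 2 higher and 3 lower, against 16.4%, 11.0% and 5.42%. In mature thymic cells 2 of 9 were called, 1 higher and 1 lower, against 18.9%, 14.6% and 4.36%. The members' medians were 0.42, 0.15 and -0.17, beside 0.02, 0.01 and 0.14 for all genes.

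For Zeb2 the log2 fold change of cDC2 against cDC1 was 4.15 (SE 0.39, limma adjusted p = 7.30e-08) in the spleen, 6.20 (SE 0.39, limma adjusted p = 2.98e-10) in immature and 3.51 (SE 0.42, limma adjusted p = 4.32e-06) in mature thymic cells. These are 17.7-fold, 73.6-fold and 11.4-fold. For immature thymic cells the value was 5.50 within lane 5, with 1 sample of each, and 6.40 within lane 8. In the spleen it was 4.06 and 4.24. Macrophage markers summed to 517 to 931 in splenic cDC1 and 1746 to 1825 in splenic cDC2, and to 961 to 1251 in cDC1 and 6182 to 9298 in cDC2 of immature thymic cells. Plasmacytoid dendritic cell markers, a list that holds Tcf4 and Spib, summed to 2019 to 3333 in immature thymic cDC1 and 8766 to 9594 in immature thymic cDC2. Of 7 tested plasmacytoid markers, 2 were called higher in immature thymic cDC2 (Tcf4 and Spib). Siglech read 323 to 468 in cDC1 and 732 to 1120 in cDC2, and Cox6a2 6.76 to 23.4 and 23.5 to 41.5. Ccr9 read 763 to 1141 in cDC1 and 568 to 681 in cDC2, and Pacsin1 92.0 to 122 and 69.6 to 87.2. Of the 7 macrophage markers, 5 were called higher in splenic cDC2, 6 in immature thymic cDC2 and 6 in mature thymic cDC2. In immature thymic cells C1qa read 59.6 to 109 in cDC1 and 1614 to 2797 in cDC2, and Mertk read 0 to 9.16 and 118 to 183. The part of either cell type was not tested.

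Id2 had log2 fold changes of cDC2 against cDC1 of -3.41 (SE 0.20, limma adjusted p = 4.66e-11) in the spleen, 10.6-fold lower, and -2.12 (SE 0.20, limma adjusted p = 6.69e-08) in immature thymic cells, 4.34-fold lower. In mature thymic cells the value was -0.63 (SE 0.21, limma adjusted p = 0.0345), less than 2-fold, with no overlap of the groups. The order of the groups by Id2 was mature cDC1, mature cDC2, immature thymic cDC1, splenic cDC1, immature thymic cDC2 and splenic cDC2, and the overlapping neighbours were the immature thymic and splenic cDC1.

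Batf3 was lower in immature thymic cDC2 than in cDC1, with a log2 fold change of -1.12 (SE 0.27, limma adjusted p = 0.00358), 2.18-fold. In the spleen it read 1238, 1089.8, 2197 and 1716 in cDC1 and 1076, 500.4 and 1059 in cDC2. The splenic groups did not overlap, by a small margin, and the log2 fold change of -0.86 (SE 0.27, limma adjusted p = 0.0223) fell short of 2-fold. It passed the limit without splenic cDC1 replicate 2 (-1.01), splenic cDC2 replicate 1 (-1.04) or splenic cDC2 replicate 3 (-1.03). In mature thymic cells it was -0.17 (SE 0.29, limma adjusted p = 0.724) and the groups overlapped.

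Nfil3 and Bcl6 were called between the immature thymic subsets. Nfil3 read 2044, 2090.5, 3051 and 1686 in cDC1 and 3789.5, 4084 and 5400.4 in cDC2, with no overlap and a log2 fold change of 1.01 (SE 0.26, limma adjusted p = 0.00731). This lay at the 2-fold limit, and the call was lost at 0.98 with edgeR, 0.995 with DESeq2 and 0.995 with TMM factors. It was also lost without immature cDC1 replicate 1 (0.99), 2 (0.997) or 4 (0.89), or immature cDC2 replicate 3 (0.86). Within lanes 5 and 8 the difference was 0.89 and 1.09. In the spleen Nfil3 read 2944, 1767, 3372 and 1734 in cDC1 and 3649.6, 2180.4 and 3917 in cDC2, with overlap and a log2 fold change of 0.42 (SE 0.26, limma adjusted p = 0.297). In mature cells it was 0.82 (SE 0.28, limma adjusted p = 0.0403), from 2778, 3858 and 4216 in cDC1 and 4942, 7433 and 6772 in cDC2.

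Bcl6 was lower in immature thymic cDC2, at -1.10 (SE 0.14, limma adjusted p = 4.72e-06), with -1.27 within lane 5 and -1.04 within lane 8. In the spleen the sign was the opposite, 0.43 (SE 0.14, limma adjusted p = 0.0289), less than 2-fold, and splenic cDC2 samples lay above all splenic cDC1 samples. In mature thymic cells it was -0.75 (SE 0.15, limma adjusted p = 0.000972). The tissue effect difference given earlier is the test of this change between spleen and thymus.

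In mature cells Batf was the member lower in cDC2, at -1.59 (SE 0.37, limma adjusted p = 0.00329), 3.00-fold, from the mature samples given above. Leaving out 1 sample moved it to between -1.83 and -1.17. Its immature thymic groups did not overlap, with cDC2 above cDC1, and the log2 fold change was 0.72 (SE 0.34, limma adjusted p = 0.159). In the spleen it was 0.11 (SE 0.34, limma adjusted p = 0.889). Cbfa2t3 was lower in mature cDC2 by less than 2-fold, -0.84 (SE 0.20, limma adjusted p = 0.00464), and read 7243, 6699, 9830.1 and 6390.4 in splenic cDC1 and 10392, 8413 and 15821 in splenic cDC2, a log2 fold change of 0.58 (SE 0.19, limma adjusted p = 0.0276).

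The lineage marker Zbtb46 and the myeloid factor Spi1 were called in none of the 9 comparisons by limma. Zbtb46 read 3029.6, 3816, 3997 and 3802 in splenic cDC1, 2693, 2975 and 3438 in splenic cDC2, 4152 to 6439.6 in mature cDC1 and 4466 to 4897 in mature cDC2. Its log2 fold changes between subsets were -0.27 (limma adjusted p = 0.232) in the spleen, -0.02 (0.966) in immature and -0.15 (0.559) in mature thymic cells. Those of Spi1 were 0.50 (limma adjusted p = 0.210), 0.20 (0.712) and 0.34 (0.434). Spi1 was read at 3416, 3944 and 5603 in mature thymic cDC1 and 6266, 6188 and 3962 in mature thymic cDC2, so these groups overlapped.

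**Figure D5:**
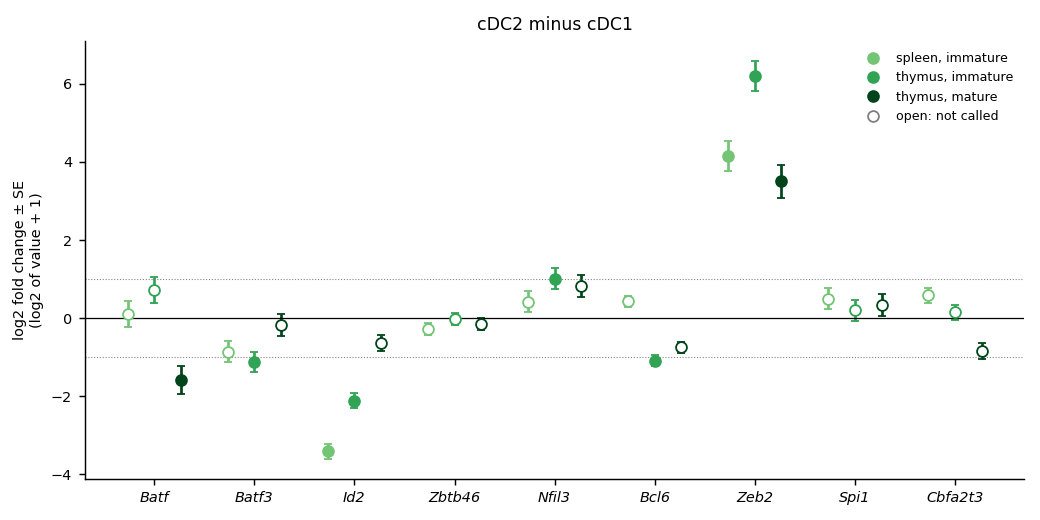
Log2 fold change ± SE (limma, log2 of value + 1) of cDC2 against cDC1 for each transcription factor in splenic, immature thymic and mature thymic cells; filled points are called and dotted lines mark a 2-fold change. Zeb2 is above 0 in all 3 (4.15, 6.20 and 3.51), Id2 is below 0 in all 3 (-3.41, -2.12 and -0.63), and Bcl6 changes sign from 0.43 in the spleen to -1.10 in immature thymic cells.

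Of the 28 other cDC transcription factors, 11 were higher and 3 lower in splenic cDC2 (median 0.88), 10 higher and 3 lower in immature thymic cDC2 (median 0.73), and 6 higher and 2 lower in mature thymic cDC2 (median 0.39). Over all genes 16.6% were called in the spleen, 16.4% in immature and 18.9% in mature thymic cells. In the spleen the called factors were led by Irf8 at -5.15 and Prdm1 at 4.06, with Spib and Cebpb both at 2.44. In immature thymic cells they were led by Irf4 at 5.77, Spib at 4.98, Prdm1 at 4.84 and Irf8 at -4.49, and in mature cells by Cebpa at 2.53, Spib at 2.44, Myb at -2.30 and Runx1 at 1.95. Of the 26 tested partners and relatives, which share Irf4, Irf8, Tcf4, Prdm1, Spib and Runx1 with that list, 10 were higher and 1 lower in the spleen, 7 and 1 in immature and 6 and 1 in mature thymic cells. For the difference of maturation effects, 2 of the 28 were higher and 7 lower in cDC2, led by Irf4 at -3.92, Prdm1 at -3.61, Irf8 at 3.15 and Spib at -2.53, and for that of tissue effects 5 were higher and 1 lower, led by Irf4 at 3.57 and Spib at 2.53. Among the partners these counts were 2 and 4, then 4 and 1. Over all genes 13.6% were called for the maturation difference and 4.98% for the tissue difference.

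The genes whose profiles were most like those of the members are given as a description over the 20 samples, by Pearson correlation on the log2 scale among 11281 genes with a group mean of at least 100. The samples share 6 groups, so a high value reflects common group means. Id2 was most like Ly75, which encodes the endocytic receptor DEC-205 (r = 0.986), then Trim35 and Coa5. Batf3 was most like Prr13 (0.975), Scly and Wdr6, and Zeb2 most like Sirpa, the cDC2 marker (0.967), Rin2 and Pgap1. Cbfa2t3 was most like Foxj2 (0.957), Tle3 and Phf1, Spi1 most like Trmt112 (0.948), Emc10 and Dhx16, and Bcl6 most like Lrrk2 (0.919), Nfatc1 and Ptch1. Lower values were those of Zbtb46 with Mtmr4 (0.888) and Ctnnb1, Nfil3 with Got1 (0.884), Hebp1 and Nicn1, and Batf with Ccnd3, encoding cyclin D3 (0.872), Acadvl and Tbl2. Ly75 read 3392 and 4141 on average in splenic and immature thymic cDC1, 26416 in mature cDC1, 189 in splenic, 1048 in immature thymic and 14981 in mature thymic cDC2.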

How the data were processed

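RNAseq libraries (21, TruSeq Stranded mRNA, HiSeq 3000) of 6 sorted cDC groups were used. According to the methods and processing notes, the authors trimmed the reads, aligned them with STAR (2.6) to mm10, counted reads per Ensembl gene with HTSeq and divided the counts by the size factors of DESeq2 (1.24.0). The strand setting of the counting and the Ensembl release were not given in the sources used here. The deposited values are a signal, the normalized read count of 37734 genes, and they were whole multiples of 1 read for 100% of values, within a tolerance of 1e-06 reads. The recovered reads, 14266867 to 40119669 per library, set the counting precision.

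The 9 members and the gene lists were chosen with earlier results of these data known. Groups were taken from the labels. The log2 of value + 1 was fitted with limma (3.58.1, R 4.3.3), with 1 mean per group and an intensity trend, over 14970 genes with at least 10 in at least 3 samples, and calls needed a Benjamini-Hochberg adjusted p under 0.1 and over 2-fold. The scripts were tested on simulated data. Lengths and overlaps came from GENCODE M21, which held 37607 of the gene identifiers. All members were named, as were the 3 genes most like each member (highest Pearson correlation, group mean of at least 100) and, from each list, up to 4 called genes per comparison with the largest change and a group mean of at least 100. A gene that this rule names for Zbtb46 is not reported here.

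Alternatives were edgeR (4.0.16) with TMM factors and DESeq2 (1.42.0) on the recovered reads, values rescaled by TMM factors, pseudocounts of 0.1 and 8, no filter, fits of the compared groups only, all 21 libraries, libraries of 1 pool averaged, the lane as a covariate, lane 8 only, the pool number as a block, and each sample left out. Whether pool numbers pair the samples was checked by correlating deviations from the group means between same-numbered cDC1 and cDC2. The values were 0.007, 0.25, 0.46 and -0.08 in the spleen and -0.15, 0.26, 0.28 and -0.08 in immature thymic cells. Between different numbers they ranged from -0.49 to 0.24 in the spleen and from -0.22 to 0.26 in immature thymic cells. The same-numbered values varied in sign, and the main fit did not use the numbers as pairs. Counts with the pool number as a block are given below.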

Additional observations from a re-analysis of the deposited data

Results flagged for a closer look

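In 6 instances the effect of maturation or of tissue on a member differed between cDC2 and cDC1 by the test of the difference itself (limma on the log2 of value + 1, adjusted p under 0.1 and over 2-fold). The maturation effect differed by -2.31 for Batf, which was lower in mature cDC2, by 1.49 for Id2, which rose in both subsets and more in cDC2, and by -2.69 for Zeb2, which was called higher in mature cDC1. The tissue effect differed by 1.29 for Id2, higher in thymic than in splenic cDC2, by -1.53 for Bcl6, whose difference in cDC2 exceeded that in cDC1, and by 2.05 for Zeb2, lower in thymic than in splenic cDC1. Groups of 4 samples were examined for a sample far from the others, by its gap to the next value as a share of the group's range. None of the 18 such sets of a member passed the limit set for this share. Groups of 3 samples were not examined.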

How the results depend on the processing

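Over 81 fold changes, no call changed sign under any alternative run, and 9 calls were lost, 7 of them that of Nfil3 between immature thymic subsets. The count of members called moved by over 1.5 times in 1 instance, the difference of tissue effects, where lane 8 only gave 1 in place of 3, with the calls of Id2 (1.28) and Zeb2 (2.15) lost and fewer samples in the fit. Fold changes near 0 that were not called changed sign. In lane 8 only these were Zbtb46 between immature thymic subsets (0.12), Batf between splenic subsets (-0.14), and, between thymic and splenic cDC1, Batf (-0.23), Cbfa2t3 (-0.0828), Spi1 (-0.25) and Zbtb46 (-0.0325). Spi1 in thymic against splenic cDC1 also became -0.0024 with edgeR, -0.014 with DESeq2, -0.0122 with libraries of 1 pool averaged and -0.0647 with the lane as a covariate. The cause was not tested. With samples left out, the ranges that crossed 0 were, between immature thymic subsets, -0.11 to 0.0897 for Zbtb46, and for the difference of maturation effects -0.0102 to 0.36 for Spi1 and -0.28 to 0.0331 for Zbtb46. Between mature subsets they were -0.31 to 0.0564 for Batf3 and -0.30 to 0.0147 for Zbtb46, and between splenic subsets -0.10 to 0.37 for Batf. For mature against immature cDC1 Batf ranged from -0.0199 to 0.65. For thymic against splenic cDC1 the ranges were -0.0853 to 0.30 for Batf, -0.25 to 0.086 for Batf3, -0.28 to 0.0566 for Nfil3 and -0.0975 to 0.29 for Spi1. With the pool number as a replicate block, 2 members were called between splenic and 5 between immature thymic subsets, as without it, and over all genes 2738 and 2472 were called against 2663 and 2602 without the block. Depth limited Zeb2 in immature thymic cDC1, where the lowest sample had 9 reads.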
